A study of Mus musculus with 6 samples.

Results

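The distal sites of open chromatin that were called only in MV+ cells, the Pax6-ON line of lens origin, numbered 2865 of 34742 union intervals on chromosomes 1 to 19 (mouse build mm9). They were chosen by the peak calls themselves: peaks of all 3 lines that shared at least 1 bp were merged into union intervals, intervals that held an MV+ peak and no peak of another line were kept, and those within 1 kb of the start site of a protein-coding transcript were left out. Of the union intervals, 3147, or 9.06%, were called in MV+ cells only, and 282 of these lay near a start site. Among the 24209 distal intervals, the 2865 members made up 11.8%. Because the calls selected the members, their presence in MV+ cells and absence from the other lines is not a result, and their peak heights are given as a description.

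ATAC-seq, in which the transposase Tn5 inserts sequencing adapters into accessible DNA, was done on 2 samples of each of 3 mouse cell lines, with 50000 nuclei per reaction. MV+ cells were derived from cultured lens epithelia of a wildtype C57BL6 mouse and express Pax6, Beta-TC3 (Pax6-HIGH) cells came from an insulinoma, and RAG (Pax6-OFF) cells came from a renal adenocarcinoma of the BALB/c strain. The labels give the cell line and name no treatment or genotype, and all lines grew in the same medium with fetal calf serum. Nuclei of MV+ cells were released with 0.2% of the detergent NP40 and those of the other lines with 0.1%. Tissue of origin, strain, genotype, line and detergent therefore cannot be told apart. Each tissue is represented by 1 line.

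Both samples of a line were pooled in 1 set of calls, which leaves no error between replicates for any value below and allows no test between lines. The MV+ calls rested on 130955836 fragments, against 100254099 in Beta-TC3 and 102223606 in RAG cells. MV+ cells nevertheless had the fewest peaks, 9821 against 28024 and 14022. The lowest pileup of any called peak, which is the number of fragments over its summit, was 30 in MV+ cells and 25 in each of the other lines. When the pileups of the members were scaled down to the fragment totals of the other lines, 2848 of the 2865, or 99.4%, were still at or above that lowest value in both. The calls rest on this same pileup, and only members below 32.7 MV+ fragments could fall short. A call also depends on the local background, so the share does not show that the members would be called at that depth.

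Distal open sites are mostly enhancers and other regulatory elements: stretches of DNA freed of nucleosomes by transcription factors, which act on promoters some distance away. Which distal sites are open differs between cell types far more than which promoters are open. Fos and Jun proteins bind them as AP-1 dimers in many adherent, growing cells, often next to TEAD factors, the DNA-binding partners of the Hippo pathway coactivators YAP and TAZ, and RUNX factors. In the lens, Pax6, Maf, Prox1 and Sox family factors drive the crystallins, the main proteins of the lens fibers, while the anterior epithelium keeps dividing. Lens epithelial cells in culture can lose these features and take on mesenchymal ones.

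The lens label was checked on promoters, since no gene expression was used here. Of 27 genes for lens transcription factors, 9 had an MV+ peak within 1 kb of a start site, among them Pax6, Maf and Prox1, whereas Six3, Foxe3, Pitx3 and Hsf4 had none. RAG cells also had 9 of the 27 and Beta-TC3 cells 16. None of 20 crystallin and lens fiber genes had one in MV+ cells, against 3 in Beta-TC3 and 1 in RAG cells. Of 17 lens epithelium genes, 6 had one, against 12 in Beta-TC3 and 8 in RAG cells. Jag1 and Fgfr2 were among the 6, but Cdh1, which encodes E-cadherin, was not. Among 19 genes of the epithelial state only Grhl1 had an MV+ promoter peak, and among 23 genes of the mesenchymal state 6 did, namely Vim, Fn1, Cdh11, Snai2, Twist1 and Acta2. The epithelial genes numbered 3 in Beta-TC3 and 4 in RAG cells, and the mesenchymal genes 5 and 1. Over all 21281 protein-coding genes the share with a promoter peak was 21.6% in MV+, 46.5% in Beta-TC3 and 36.5% in RAG cells. The promoters therefore do not mark these cells as differentiated lens, and the sites are named here by the line in which they were called.

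The sequences of 8 members are shown because each holds at least 2 matches to the AP-1 letters TGANTCA or the TEAD letters GGAATG, on either strand, within 200 bp centred on the summit. They are the members with the highest pileup among those named by their height, length or nearest gene. All are the plus strand of build mm9 (NCBIM37), and capitals mark the AP-1 and TEAD matches. The site nearest to Hbb-y, an embryonic globin gene, was at chr7:111009531-111009730, 7739 bp upstream of its start site, and the site nearest to Map2k6, a kinase of the p38 pathway, was at chr11:110372874-110373073 in an intron of that gene. The site near the odorant receptor gene Olfr16 was at chr1:174890661-174890860, and the one near Mup5, a major urinary protein gene, at chr4:61516923-61517122. The site in an intron of Khdrbs3, which encodes an RNA-binding protein, was at chr15:68909876-68910075, and that in an intron of the sodium channel gene Scn2a1 was at chr2:65560503-65560702. The windows nearest to Lphn3, an adhesion receptor gene, and to the insulin gene Ins1 were at chr5:81113013-81113212 and chr19:52707093-52707292, both intergenic.
Hbb-y: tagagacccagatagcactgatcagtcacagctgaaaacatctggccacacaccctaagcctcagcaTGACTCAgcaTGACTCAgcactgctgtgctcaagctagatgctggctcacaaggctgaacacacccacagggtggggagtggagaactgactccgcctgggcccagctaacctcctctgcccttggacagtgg
Map2k6: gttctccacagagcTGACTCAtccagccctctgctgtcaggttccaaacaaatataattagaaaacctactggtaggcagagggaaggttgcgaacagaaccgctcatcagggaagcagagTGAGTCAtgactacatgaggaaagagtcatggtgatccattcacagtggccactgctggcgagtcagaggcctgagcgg
Olfr16: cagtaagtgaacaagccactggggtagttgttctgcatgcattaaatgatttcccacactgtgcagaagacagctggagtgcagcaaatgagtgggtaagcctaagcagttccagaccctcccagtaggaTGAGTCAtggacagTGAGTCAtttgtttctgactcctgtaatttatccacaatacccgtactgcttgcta
Mup5: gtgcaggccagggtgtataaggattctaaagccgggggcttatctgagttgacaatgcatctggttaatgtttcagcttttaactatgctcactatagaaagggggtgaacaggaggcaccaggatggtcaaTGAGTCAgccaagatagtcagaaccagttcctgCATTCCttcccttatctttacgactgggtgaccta
Khdrbs3: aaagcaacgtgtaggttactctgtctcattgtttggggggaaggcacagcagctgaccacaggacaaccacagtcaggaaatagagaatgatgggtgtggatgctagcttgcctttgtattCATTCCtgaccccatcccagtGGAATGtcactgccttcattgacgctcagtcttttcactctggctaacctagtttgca
Scn2a1: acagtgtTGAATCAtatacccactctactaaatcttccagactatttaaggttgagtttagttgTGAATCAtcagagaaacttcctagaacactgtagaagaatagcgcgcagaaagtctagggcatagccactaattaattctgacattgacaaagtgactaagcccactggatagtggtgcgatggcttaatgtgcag
Lphn3: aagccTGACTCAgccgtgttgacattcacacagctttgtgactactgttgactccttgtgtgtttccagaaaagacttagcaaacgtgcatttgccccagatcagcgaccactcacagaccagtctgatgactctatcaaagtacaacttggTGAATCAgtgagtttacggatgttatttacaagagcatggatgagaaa
Ins1: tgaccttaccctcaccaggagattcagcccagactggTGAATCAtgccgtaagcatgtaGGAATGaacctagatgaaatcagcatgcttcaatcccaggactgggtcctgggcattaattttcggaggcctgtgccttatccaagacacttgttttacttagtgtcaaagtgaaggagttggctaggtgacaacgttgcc

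In the Hbb-y window both AP-1 matches stood side by side with the same letters on the same strand, whereas in the Map2k6 and Lphn3 windows they were far apart. The Khdrbs3 window held no AP-1 match and both its capitals are TEAD letters, once on each strand. The Mup5 window is the only one of the 8 whose sequence was mostly present at more than 1 place in the reference. Pileups at these sites were 242 fragments for Hbb-y, 234 for Map2k6, 230 for Olfr16, 218 for Mup5, 215 for Khdrbs3 and 208 for Scn2a1. Those at Lphn3 and Ins1 were 162 and 133.

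Most members were short and moderate in height. The median summit pileup was 57 fragments (95% interval of the median 56 to 58, n = 2865), with quartiles of 46 and 74. The median fold enrichment, the ratio of the pileup to the local background expected by the peak caller, was 3.62 (3.56 to 3.69), and it ranged from 1.51 to 27.5. The median length was 335 bp (328 to 341), from 218 to 1598 bp. Every member came from 1 peak. Distal sites shared by MV+ and RAG cells had a median MV+ pileup of 62 (60 to 65, n = 779), and those shared by MV+ and Beta-TC3 cells 58 (55 to 60, n = 480). The intervals of the members and of the sites shared with Beta-TC3 cells overlapped, and those shared with RAG cells were slightly higher.

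The members at the limits of the rule varied in height. Just inside the 1 kb limit were a site 1019 bp from a start site of Elavl2, with a pileup of 76, and one 1027 bp from Olfr305, with a pileup of 50. Just outside it were sites 969 bp from Dhrs3 (pileup 75) and 964 bp from Gm17293 (pileup 55). The member closest to a peak of another line lay 73 bp from it, near Itpr1, and had a pileup of 36. The smallest overlaps that removed an MV+ peak were 2 bp near Gpr125 and 14 bp near Itih5. Only 40 members, or 1.40%, had a peak of another line within 500 bp, and the median distance to one was 35763 bp. The weakest calls, near Prl2c3 and Zfp640, had a −log10 q-value of 1.40 with pileups of 31 and 30.

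The sequence under the members was dominated by AP-1 letters. Of the 2865 windows of 200 bp, 1512, or 52.8% (95% Wilson interval 50.9 to 54.6), held TGANTCA. The share was 6.28% (5.68 to 6.94) in 5730 windows of the same length 2 kb to either side of the summits, and 5.86% over all windows of chromosome 19. Distal sites called only in RAG cells held it in 24.8% (23.3 to 26.5, n = 2898) and those called only in Beta-TC3 cells in 13.0% (12.5 to 13.5, n = 14679). Those shared by MV+ and RAG cells came close to the members, with 49.3% (45.8 to 52.8), and those shared by MV+ and Beta-TC3 cells lay between, with 30.8% (26.9 to 35.1). Intervals of MV+ cells alone that were left out for lying near a start site held it in 14.2% (10.6 to 18.7, n = 282). The intervals cover the counting of sites only, and sites of 1 library are not replicates.

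Several matches per window were common. A single match was found in 1126 members, 2 in 348, 3 in 34 and 4 in 4. Of all 1940 matches, 77.6% read TGACTCA or its complement TGAGTCA, the best-known Fos and Jun site, and 22.4% read TGAATCA or TGATTCA. The motif letters were searched on both strands, and since TGANTCA reads nearly alike on both, each position was counted once.

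TEAD and RUNX letters were also more frequent at the members than 2 kb away. TEAD letters were found in 654 windows, 22.8% (21.3 to 24.4), against 12.2% (11.4 to 13.1) in the flanks, 16.1% (14.8 to 17.5) in RAG-only and 10.4% (9.89 to 10.9) in Beta-TC3-only sites. RUNX letters, searched as TGTGGTT, were found in 320 windows, 11.2% (10.1 to 12.4), against 4.89% (4.36 to 5.48) in the flanks, 7.83% (6.91 to 8.87) in RAG-only and 3.80% (3.50 to 4.12) in Beta-TC3-only sites. Sites shared by MV+ and RAG cells had 24.3% with TEAD and 11.4% with RUNX letters. At the members, TEAD letters were in 22.4% (20.3 to 24.5) of windows with AP-1 and 23.4% (21.2 to 25.7) of windows without it, and RUNX letters in 10.4% (8.95 to 12.0) and 12.0% (10.4 to 13.9), so that both pairs of intervals overlapped. In all, 1945 members, or 67.9%, held at least 1 of the 3 motifs.

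Of the other motifs some were more and some less frequent at members than in their flanks. The E-box CAGCTG, read by many basic helix-loop-helix factors, was in 13.0% (11.8 to 14.3) of members and 7.49% (6.83 to 8.20) of flanks, but in 20.8% of Beta-TC3-only and 14.8% of RAG-only sites. CTCF core letters, CCANNAGNNGGC, were in 2.55% of members and 0.803% of flanks, KLF letters, CCACACCC, in 2.27% and 1.08%, and ETS letters, CCGGAAG, in 1.33% and 0.489%. Beta-TC3-only and RAG-only sites held CTCF core letters in 4.52% and 1.76%, KLF letters in 2.71% and 3.28%, and ETS letters in 1.72% and 1.97%. In contrast, CAGGTG, the E-box read by ZEB and SNAI repressors among others, was less frequent in members than in their flanks. It was found in 6.39% (5.55 to 7.34) of members and 11.9% (11.1 to 12.7) of flanks. Beta-TC3-only and RAG-only sites were higher than members, at 13.7% and 14.7%. Sites shared by MV+ and RAG cells held it in 8.99% (7.17 to 11.2), and those shared by MV+ and Beta-TC3 cells in 7.29% (5.29 to 9.97). Members whose window is mostly single-copy in the reference held it in 5.26%, and the other members in 12.4%. The homeodomain letters TAATTA were in 3.60% of members and 7.47% of flanks. They were also below those flanks in Beta-TC3-only sites, at 4.91%, and in RAG-only sites, at 3.21%. The MAF letters TGCTGAC were in 5.79% (5.00 to 6.71) of members, above the 2.30% of flanks but below the 10.6% (10.1 to 11.1) of Beta-TC3-only sites. In 29 of those 166 members a MAF match shared bases with an AP-1 match. The PAX6 paired-domain letters TTCACGC were in 0.628% (0.398 to 0.991) of members, 0.314% (0.199 to 0.496) of flanks and 0.620% of Beta-TC3-only sites, and the intervals of members and flanks overlapped. SP letters, GGGCGG, were in 4.64% of members, 1.68% of flanks, 7.62% of Beta-TC3-only sites, 8.83% of RAG-only sites and 44.7% of the MV+-only intervals near start sites. A match is a description of the letters, not of a bound factor, and a missing match says nothing about one.

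**Figure D1:**
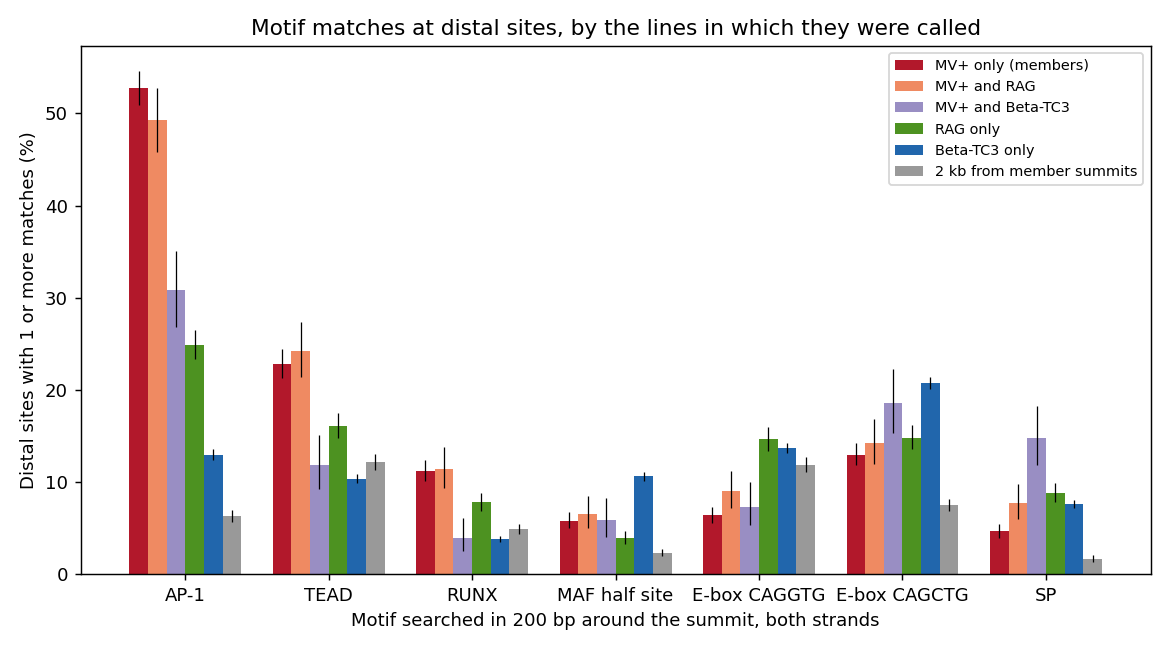
Percentage of distal sites with 1 or more matches to each of 7 motifs (x axis) in 200 bp around the summit, for sites grouped by the lines in which they were called and for windows 2 kb from the members' summits; bars start at 0 and lines are 95% Wilson intervals. AP-1 letters stood at 52.8% of members and 6.28% of their flanks, while CAGGTG was lower in members than in flanks.

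The AP-1 letters were concentrated beside the summit and not at it. Counted in bins of 10 bp, matches per 1000 members were highest in the bins centred 25 bp to either side, at 67.4 and 74.3. They fell to 24.4 and 23.7 in the bins next to the summit, centred 5 bp to either side. At 95 bp they were 18.2 and 22.0. Of the matches in the windows, 28.0% had their centre within 25 bp of the summit and 7.11% within 10 bp, and the median distance was 40.5 bp. RAG-only sites had a median of 41.5 bp and Beta-TC3-only sites 43.5 bp. The TEAD letters at members had a median distance of 46.0 bp, with 14.7 and 14.3 matches per 1000 members in the bins next to the summit. The RUNX letters had a median of 48.5 bp and were lower there, at 4.54 and 3.49 per 1000 members from 13 and 10 matches, than in the bins centred 25 bp away, at 6.28 and 6.63.

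**Figure D2:**
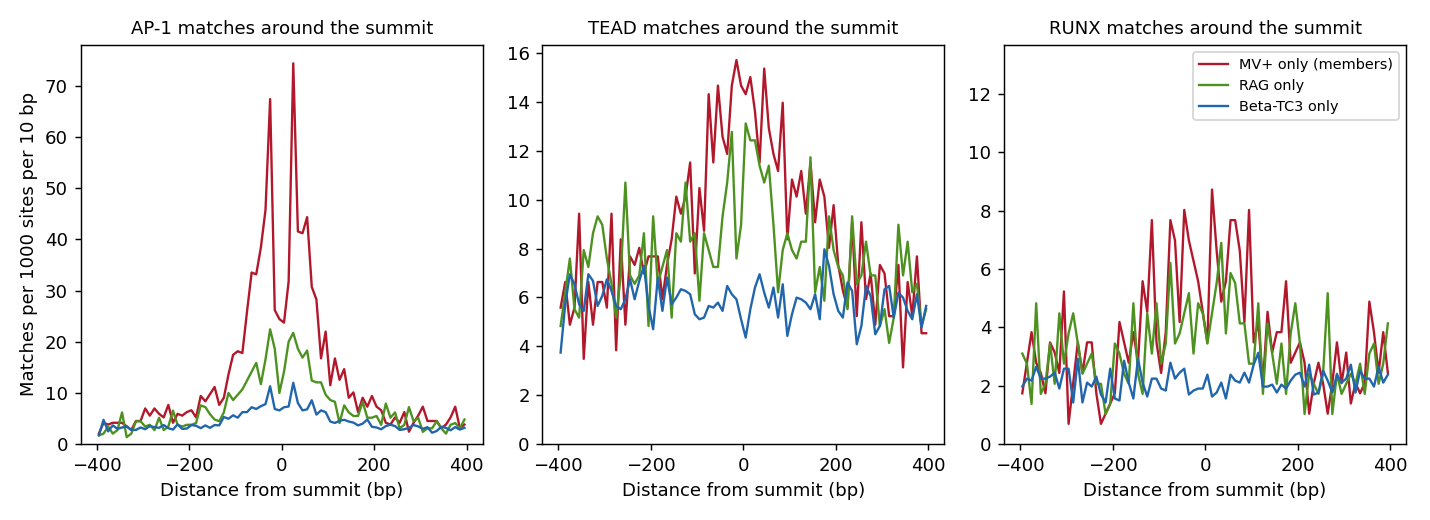
Matches per 1000 sites in bins of 10 bp (y axis) against the distance from the summit in bp (x axis), for AP-1, TEAD and RUNX letters in members and in RAG-only and Beta-TC3-only distal sites. The AP-1 curve of the members reaches 74.3 at 25 bp and drops to 23.7 beside the summit.

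Taller members held AP-1 letters more often. When members were ordered by pileup and divided into 4 groups of nearly equal size, the share was 37.0% (33.5 to 40.6) in the lowest, 51.5% (47.9 to 55.2) and 57.4% (53.8 to 61.0) in the middle ones and 65.2% (61.7 to 68.6) in the highest. TEAD letters stayed between 20.1% and 25.7%, and RUNX letters between 9.90% and 12.7%, with the intervals of neighbouring groups overlapping. Members with AP-1 letters had a median pileup of 62 (60 to 63) and lay a median of 69.6 kb (63.2 to 77.6) from the nearest start site. Members without them had a median pileup of 53 (51 to 54) and lay 45.1 kb (41.7 to 51.6) away. The difference in distance was narrower among members whose window is mostly single-copy in the reference. There the medians were 71.8 kb (65.7 to 79.3) with AP-1 letters and 58.1 kb (53.5 to 65.0) without them.

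A part of the members lay in sequence that the reference holds more than once. In 452 members, 15.8% (14.5 to 17.2), over 50% of the 31-base words of the window occurred at 2 or more places, and these are called multi-copy here. The share was 33.6% (31.9 to 35.3) in RAG-only, 9.34% (8.88 to 9.82) in Beta-TC3-only and 55.4% (52.4 to 58.4) in the distal sites of all 3 lines. Multi-copy members held AP-1 letters in 11.9% (9.27 to 15.3), and the 2413 single-copy members in 60.4% (58.5 to 62.4). With single-copy sites alone the share was 34.1% (32.1 to 36.3) in RAG-only, 14.0% (13.4 to 14.6) in Beta-TC3-only and 56.4% (52.6 to 60.2) in sites shared by MV+ and RAG cells, so the order of the groups was kept. Multi-copy members had a median fold enrichment of 2.83 (2.74 to 2.90) against 3.89 (3.82 to 3.95) for single-copy members. How fragments with several possible places were treated is not given in the sources used here.

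The tallest members of all were of this kind. The highest pileup, 26039 fragments, was at chr10:95540254-95540509, 103907 bp downstream of a start site of Eea1, and 56.5% of the 31-base words of its window also occur in the mitochondrial genome. Next came sites in an intron of Cpeb4 with 984 fragments and in an intron of Pcca with 466, and a site near Igsf11 had 246. The words of these windows occur at a median of 1479, 1477 and 1813 places. A site 36295 bp upstream of Mup16 had 276 fragments and 6 copies. None of these 5 windows held an AP-1 match.

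The tallest single-copy members ran from 242 fragments at Hbb-y, 241 at Arrdc3 and 236 near 4922501C03Rik to 186 near Ube2e3, the 15th. Besides the windows printed above, AP-1 letters occurred at sites that included those near Arrdc3, Rgs2 and C1d. Arrdc3 encodes an arrestin-domain protein and Rgs2 a regulator of G protein signalling. Of the 15, 3 lay in introns of Sfi1, with pileups of 207, 197 and 188 but fold enrichments of 1.53, 1.51 and 1.57 over a high local background. The other 12 had fold enrichments of 9.44 or more. The 5 longest members were near Gm17474 (1598 bp), Gm13051 (1307 bp), Lor (1274 bp), Gm13212 (1137 bp) and Sdccag8 (1097 bp), and only the last held an AP-1 match.

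By position, 1661 members, or 58.0% (56.2 to 59.8), had their summit between annotated transcripts and 980, or 34.2% (32.5 to 36.0), in an intron of a protein-coding gene. Another 182 lay in noncoding or other transcripts, 25 in coding exons and 17 in UTRs. Introns held 41.6% (40.8 to 42.4) of Beta-TC3-only and 30.8% (29.1 to 32.5) of RAG-only sites. The median distance from a member to the nearest protein-coding start site was 57.1 kb (53.0 to 60.6), with a range of 1.02 to 2199.7 kb. It was 49.0 kb (47.4 to 50.6) for Beta-TC3-only and 38.2 kb (35.7 to 40.8) for RAG-only sites. Members more than 100 kb and up to 500 kb away made up 30.5% (28.8 to 32.2), against 26.4% and 23.2%. Of the members, 1528 lay downstream and 1337 upstream of that start site, and 104 had a start site of some other annotated transcript within 1 kb.

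The chromosomes differed in how many members they carried. Over chromosomes 1 to 19 there were 1.16 members per Mb, and 0.976 when single-copy members alone were counted. Chromosome 4 had 419 members, 2.69 per Mb, and chromosome 12 had 72, 0.594 per Mb. Single-copy members were also densest on chromosome 4, at 1.65 per Mb, followed by chromosome 19 at 1.53 and chromosome 8 at 1.23. On chromosome 14, 81 of 154 members were multi-copy. Pileup at shared sites also varied between chromosomes. At sites called in all 3 lines, the median pileup on chromosome 4 relative to all chromosomes was 1.07 in MV+, 0.904 in Beta-TC3 and 0.730 in RAG cells, and on chromosome 19 it was 0.985, 0.768 and 1.03. On chromosome 6, with 1.10 single-copy members per Mb, it was 1.03, 1.89 and 0.945. On chromosome 7, with 0.570 per Mb, it was 0.970, 0.920 and 0.849. The part of depth in the counts was not tested.

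**Figure D3:**
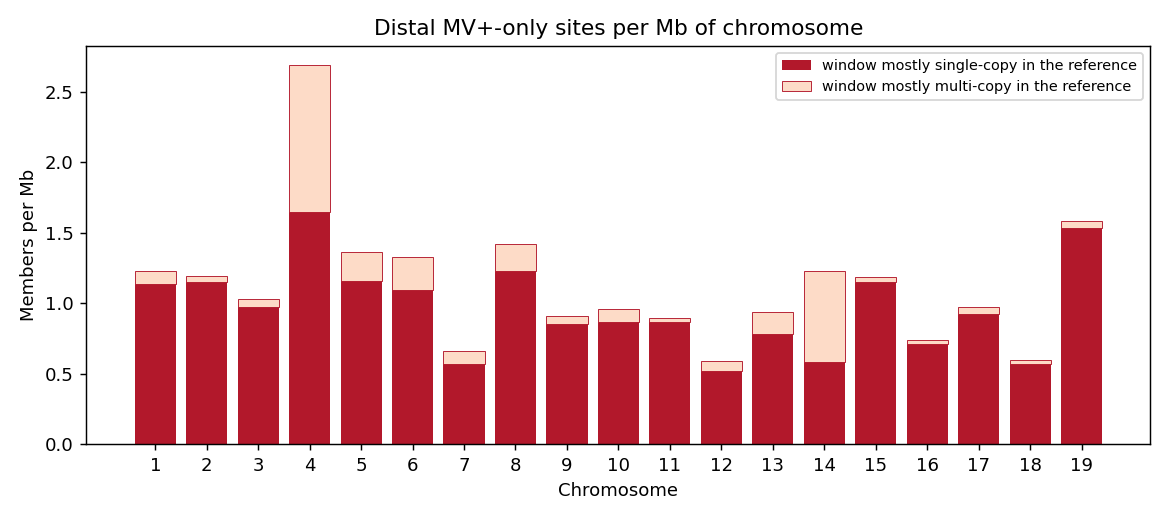
Members per Mb of each chromosome (y axis; x axis: chromosomes 1 to 19), divided into members whose window is mostly single-copy (dark) and mostly multi-copy (light) in the reference. Chromosome 4 stands highest with 2.69 per Mb, of which 1.65 is single-copy.

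One stretch of chromosome 4 held 179 members, 6.25% of all. It spans 2.50 Mb, chr4:145000001-147500000, which is 5 neighbouring windows of 500 kb with at least 10 members each. The 3 densest windows of the genome were here, with 60, 51 and 35 members. Of the 179, 134 were multi-copy, 152 were nearest to a numbered Gm gene model, and 17, or 9.50% (6.01 to 14.7), held AP-1 letters. The stretch holds a cluster of zinc finger genes and predicted genes, Zfp600 and Rex2 among them. In the same stretch 235 peaks were called in MV+, 63 in Beta-TC3 and 23 in RAG cells. The rest of chromosome 4 had 240 members, 1.57 per Mb, and 212 single-copy members, 1.38 per Mb. The next dense window elsewhere lay on chromosome 6, chr6:130500001-131000000, with 29 members near Gm5581 and Klra1, a natural killer cell receptor gene, 23 of them multi-copy.

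Members were spread over many genes. By distance alone they were nearest to 1780 of 21281 protein-coding genes, 8.36%, of which 1241 had 1 member, 319 had 2 and 61 had 5 or more. The nearest gene is a statement of position and not of a target. Ranked by number of members, the genes at the top came from the dense stretches: Gm5581 had 25 members, Gm13242 had 19, Gm13151 had 15, and Gm13152 and Gm13139 had 14 each. Zfp600 had 13, and Gm13145, Gm13212 and the antibody gene segment Ighv1-73 had 12 each. Ighv1-73 was also nearest to 80 RAG-only and 2 Beta-TC3-only distal sites. Of the 20 genes with most members, Jag1, Lphn3, Rbms3 and Fggy were the 4 named genes with at most 1 multi-copy member. Gm and Rik gene models together were nearest to 471 members, 16.4%, of which 258 were multi-copy. These models are numerous, 3208 in the annotation of 21281 protein-coding genes, and 197 of the 3208 had a member. Their share among the other lines' own sites was not counted. A ranking by single-copy members, added after these values were seen, placed Gm13152 first with 11, then Jag1 and Rbms3 with 9 each and Lphn3 and Ighv1-73 with 8 each.

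Jag1 encodes a Notch ligand that lens fiber cells need. Its 10 members spread from 109.5 kb downstream to 537.7 kb upstream of a start site, with pileups of 48 to 86, and 6 held AP-1 letters. Only 2 Beta-TC3-only and no RAG-only distal sites had Jag1 as nearest gene. Sox9, a transcription factor of cartilage, testis and many progenitor cells, had 6 members, all downstream and intergenic, at 26.7, 65.8, 112.8, 167.7, 242.2 and 247.8 kb. Their pileups in that order were 80, 103, 61, 62, 53 and 57, and each of the 6 held 1 or 2 AP-1 matches. Sox9 was also nearest to 5 Beta-TC3-only and 2 RAG-only distal sites. Maf, which switches on crystallin genes in the fibers, also had 6 members, with pileups of 82, 75, 84, 79, 72 and 59 in order from 372.7 kb downstream to 371.1 kb upstream. AP-1 letters were in 4 of the 6, all of them upstream. Maf was also nearest to 3 Beta-TC3-only and 3 RAG-only distal sites.

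Other genes with many single-copy members were varied. Rbms3, an RNA-binding protein gene, had 9 members, 7 inside its introns, with pileups of 40 to 105 and AP-1 letters in 7. It was also nearest to 5 Beta-TC3-only sites and to no RAG-only site. Kcna4, a potassium channel gene, had 7 members with pileups of 45 to 131, 6 of them with AP-1 letters, and no Beta-TC3-only or RAG-only site was nearest to it. Pappa, which encodes a protease that cleaves insulin-like growth factor binding proteins, likewise had 7 members, with pileups of 47 to 114, and none of the other lines' own sites. Cdh18, Camk1g, Alg10b and Fggy had 7 each. Unlike Kcna4 and Pappa, Camk1g was also nearest to 14 Beta-TC3-only sites and Cdh18 to 9.

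**Figure D4:**
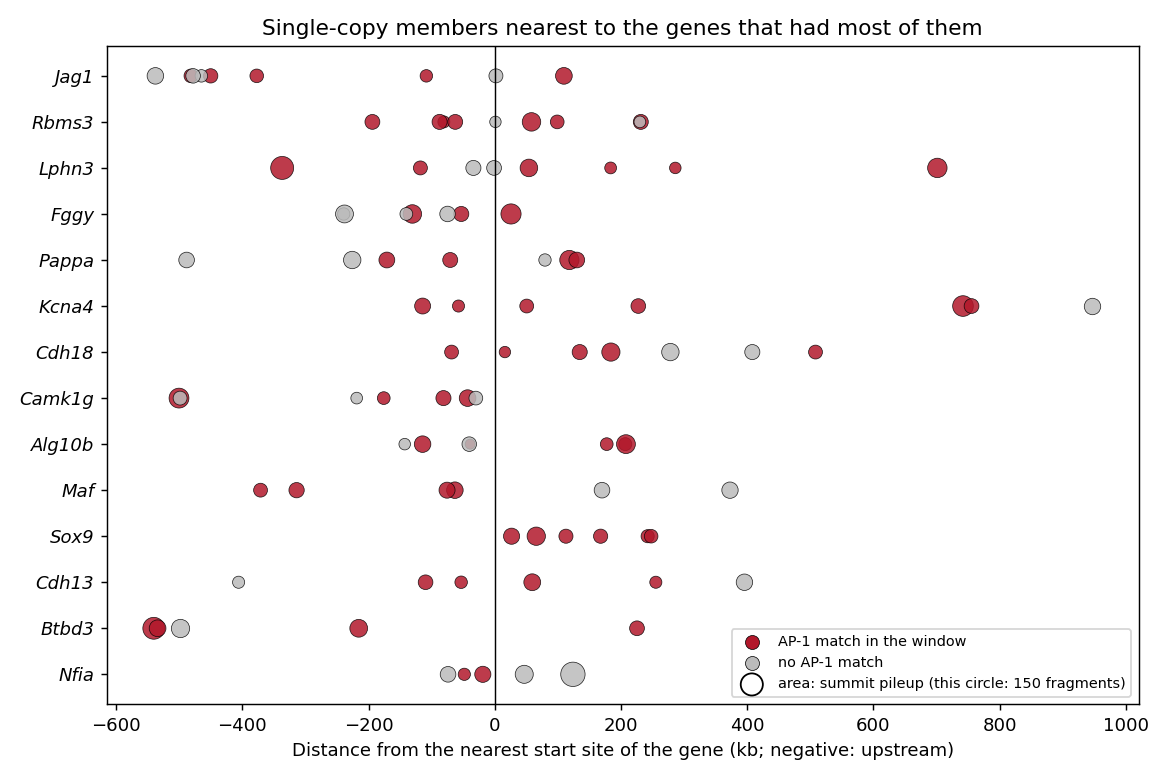
Distance in kb of single-copy members from the nearest start site of a gene (x axis; negative is upstream) for 14 named genes among the 20 with most single-copy members (y axis); circle area is the summit pileup in fragments, and red circles have an AP-1 match in the window. All 6 circles of Sox9 are red and downstream.

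Lists of genes were then read for members, against the 8.36% of all genes that had 1. Of 27 lens transcription factor genes, 8 had a member, 17 members in all. Besides Maf they included Gata3 with 3, Zeb2 with 2 and Six3 with 2, the latter at 16.8 kb and 2.57 kb upstream with pileups of 52 and 42. Of 20 crystallin and lens fiber genes only Dnase2b, the nuclease that removes fiber cell DNA, had 1, in an intron 28.3 kb downstream with a pileup of 75. Of 17 lens epithelium genes 2 had members, Jag1 and Aqp1. Lists are small, so single genes move these shares. Over all 21281 genes, 5718 were nearest to a Beta-TC3-only site and 1780 to a member, so counts of genes differ in background. Lens transcription factor genes took 0.593% of members and 0.593% of Beta-TC3-only sites, which lay at 17 of the 27 genes, and 0.276% of RAG-only sites. Crystallin and fiber genes took 0.0349%, 0.0477% and 0.0345%, and lens epithelium genes 0.384%, 0.123% and 0.138%, in the same order.

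Among genes of cell state and signalling, 7 of 23 mesenchymal genes had members, Cdh11 with 3 and Twist1 and Zeb1 with 1 each, and 1 of 19 epithelial genes, Tjp1, had 1 multi-copy member. Of 29 TGF-beta and BMP genes 8 had members, 14 in all, led by Tgfbr2, the type II receptor, with pileups of 103, 53 and 110, and by Acvr2a and Tgfb2 with 3 each. Of 34 receptor tyrosine kinase pathway genes 10 had members, 18 in all, among them the ligands Kitl and Efnb2 and the receptor Epha4 with 3 each and the feedback inhibitor Spry2 with 2. Of 23 Hippo pathway genes 5 had members: Vgll3, a TEAD cofactor, had 5 with pileups of 54, 65, 40, 150 and 68, 3 of them with TEAD letters, and Tead4 had 2, both in introns. Of 15 AP-1 and stress factor genes only Jun had members, 3 of them, with pileups of 82, 61 and 74. Runx1t1, a corepressor found fused to RUNX1 in leukaemia, was the single gene of 7 in the RUNX list, with 4. As shares of members, of Beta-TC3-only and of RAG-only sites, mesenchymal genes took 0.349%, 0.170% and 0.104%, epithelial genes 0.0349%, 0.116% and 0.138%, and TGF-beta and BMP genes 0.489%, 0.266% and 0.656%. In the same order, receptor tyrosine kinase genes took 0.628%, 0.347% and 0.380%, Hippo genes 0.349%, 0.204% and 0.0690%, AP-1 and stress factor genes 0.105%, 0.0477% and 0.0690%, and the RUNX list 0.140%, 0.218% and 0.104%.

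Matrix and adhesion genes also had members. Of 38 extracellular matrix genes 5 had members, led by Tnc with 4 (pileups of 35, 52, 62 and 116) and Col12a1 with 4 (41, 76, 80 and 74), 2 of the latter with 2 AP-1 matches each. Of 33 integrin and focal adhesion genes 8 had 9 members in all, and Itga2, a collagen receptor subunit, had 2 of these. Matrix genes took 0.384% of members, 0.388% of Beta-TC3-only and 0.552% of RAG-only sites, and integrin and focal adhesion genes 0.314%, 0.463% and 0.242%. Among families, solute carriers had 49 members over 33 of 342 genes, 1.71% against 1.66% of Beta-TC3-only and 1.35% of RAG-only sites. Cadherins and protocadherins had 43 over 17 of 62 genes, 1.50% against 0.640% and 0.621%. The 39 HOX genes had none, and they were nearest to only 2 Beta-TC3-only sites and 1 RAG-only site.

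So did lists for other tissues. Of 21 islet beta cell genes 6 had 12 members, 10 with AP-1 letters. The one nearest to Iapp lay 22.0 kb upstream, while the 4 nearest to Ins1 were 301.0 to 788.0 kb away, with pileups of 98, 63, 113 and 133, and the 3 nearest to Foxa2 were 150.7 to 338.5 kb away. Of 9 blood and endothelial genes 4 had 9 members, with 5 near Cdh5 (VE-cadherin) at 78.1 to 566.2 kb and 2 near Emcn with pileups of 99 and 138. Of 21 kidney tubule genes 2 had 4, of 9 neuronal genes 3 had 4, and of 12 muscle genes Mef2c had 2. The islet list took 0.419% of members, 0.279% of Beta-TC3-only and 0.104% of RAG-only sites, and the blood and endothelial list 0.314%, 0.102% and 0.0345%. The kidney list took 0.140%, 0.129% and 0.276%, the neuronal list 0.140%, 0.157% and 0.104%, and the muscle list 0.0698%, 0.109% and 0.0345%. MV+ promoter peaks were found at 4 of 21 islet genes (Nkx6-1, Mafa, Isl1 and Pcsk2), 2 of 21 kidney genes (Six2 and Emx2), 1 of 12 muscle genes (Mef2c), 1 of 10 neuronal genes (Syt1) and 1 of 10 blood and endothelial genes (Kdr).

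The genes nearest to members were more often open at their own promoter in MV+ cells, a measure that the rule did not use directly but that comes from the same library. Of the 1780 genes, 694, or 39.0% (36.7 to 41.3), had an MV+ peak within 1 kb of a start site, against 21.6% (21.1 to 22.2) of all genes. The share was 26.3% (24.3 to 28.3) for genes nearest to RAG-only sites and 29.6% (28.4 to 30.8) for those nearest to Beta-TC3-only sites. For promoter peaks called in RAG cells the order turned: 32.7% (30.6 to 34.9) of the genes nearest to members had one, below the 36.5% (35.9 to 37.2) of all genes. For Beta-TC3 promoter peaks the 45.5% (43.2 to 47.8) at members overlapped the 46.5% of all genes. The other lines had the same pattern at their own sites. Of genes nearest to Beta-TC3-only sites, 57.0% (55.8 to 58.3) had a Beta-TC3 promoter peak. Of genes nearest to RAG-only sites, 41.3% (39.0 to 43.5) had a RAG promoter peak. Both shares were above those of all genes, so the pattern is not particular to the members. Counted per member in place of per gene, 1242 of 2865, or 43.4% (41.5 to 45.2), had a nearest gene with an MV+ promoter peak, and 45.1% (43.2 to 47.1) of single-copy members did.

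**Figure D5:**
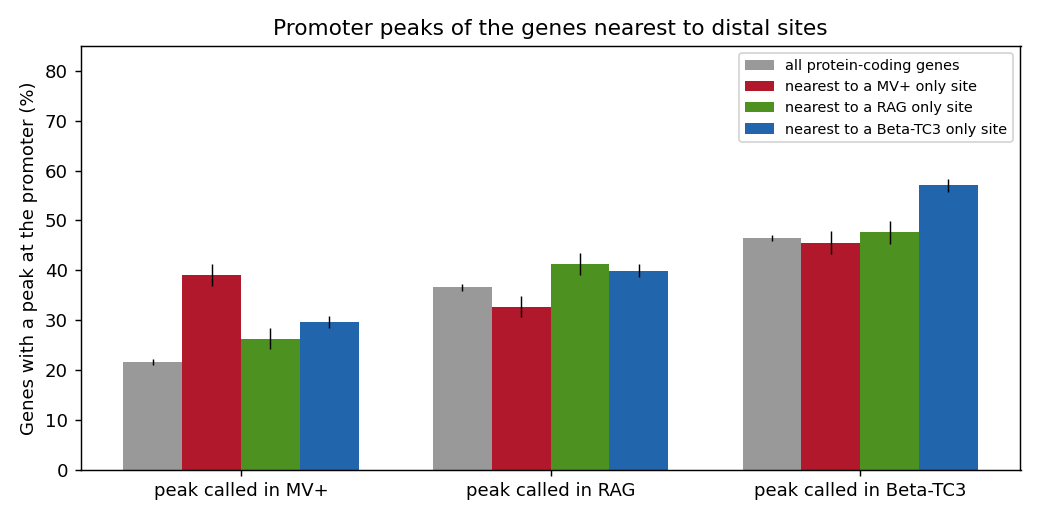
Percentage of protein-coding genes with a peak within 1 kb of a start site (y axis) in each line (x axis), for all genes and for genes nearest to MV+-only, RAG-only and Beta-TC3-only distal sites, with 95% Wilson intervals. For MV+ peaks the genes nearest to members stand at 39.0% and all genes at 21.6%, while for RAG peaks they stand at 32.7% and 36.5%.

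Members also lay near one another. Within 10 kb of another member were 461, or 16.1%, and within 100 kb 1331, or 46.5%. The median distance to the nearest other member was 121.5 kb, and it was 163.9 kb for single-copy members. Of single-copy members, 9.12% had another member within 10 kb and 40.2% within 100 kb.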

How the data were processed

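Per the labels and the study's methods, paired 75 bp reads of 6 samples were trimmed with Trim Galore 0.4.1, aligned to mm9 with Bowtie2 2.2.6, and handled with SAMtools 1.6 and bedtools. Per the file headers, the authors called peaks with MACS2 2.1.1 on both samples of a line together, without a control, at a q-value of 0.05 and with a local background of 6250 bp. The deposited tables give each peak's pileup, a signal in fragments at the summit, its fold enrichment, a ratio to the local background, and −log10 p-values and q-values. The second format of the same peaks was not used.

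Peaks on chromosomes 1 to 19 were merged and compared with GENCODE M1 start sites with pandas 2.3.3, and sequence was read from NCBIM37 with pysam 0.24.0. Copies were counted as 31-base words in the whole reference. The merging of peaks, the nearest start sites, the AP-1 search and the copy counts were tested on simulated data. Samples were grouped by the labelled cell line. Pooled calls leave no replicates, so no test was made. Intervals are Wilson intervals for shares and binomial intervals for medians, at 95%, and cover the counting of sites only. Left out were 403 MV+ peaks off these chromosomes. Genes were named by rule: the 15 tallest and 5 longest members, the 20 genes nearest to most members, up to 4 genes per list, the 3 densest windows and members at the limits. The members, 22 motifs, 18 gene lists and 26 families were chosen with earlier results of these data known. The results of 1 gene list and 1 gene are not reported here. Alternatives changed the q-value, peak number, overlap, start sites, depth scaling and search window.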

Additional observations from a re-analysis of the deposited data

How the results depend on the processing

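The number of members stayed within 1.5 times the reported 2865 under all 8 other settings, between 2653 and 3553, and the share in introns stayed within its interval, between 32.8% and 34.3%. The median pileup stayed between 56 and 58 under those. Taking the same number of peaks from each line lowered the share with AP-1 letters to 48.1%, and counting peaks as shared where the overlap covered 50% of both lowered it to 49.1%. Searching the whole interval raised it to 60.9%, and raised the share with TEAD letters to 34.3%, since more bases were searched. Leaving out start sites within 5 kb moved the median distance to 64297 bp by construction. Keeping only the 2413 single-copy members, an alternative chosen after seeing the data, moved the median pileup to 59, the median distance to 66202 bp and the share with AP-1 letters to 60.4%. Under every one of these alternatives the AP-1 share exceeded that reported for Beta-TC3-only and RAG-only sites, which were not recomputed except for single-copy windows.

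No paired analysis was possible because both replicates were pooled in 1 call per line. Sites absent from the other lines were not called there at depths of 100254099 and 102223606 fragments, which does not show that they were closed. Sites in multi-copy sequence depend on how ambiguous reads were placed. No group had 4 or more samples, so outlying samples could not be looked for.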
